A study of Mus musculus with 4 samples.

Results

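Interferon-stimulated genes were followed by name through 4 droplet single-cell RNA libraries of mouse liver leukocytes. The list held 45 genes known to be induced by interferon, and it was chosen with earlier results of these data known. Of these genes 44 were found by symbol among the 27998 genes of the count matrices. The remaining listed gene, Mx2, was not analysed here. The mice were C57BL/6J, and 2 libraries were made after a control diet and 2 after the Amylin liver NASH (AMLN) diet, a model of nonalcoholic steatohepatitis (NASH), in which a fatty liver becomes inflamed. In every group the liver was perfused and digested with the transcription inhibitor flavopiridol added, dead cells were stained, and cells were sorted as positive for the leukocyte antigen CD45 and negative for the endothelial antigen CD146. Neither the age of the mice nor the length of the diet is given in the sources used here. Nothing in the labels ties each library to a mouse of its own, so p-values reflect only the spread between these libraries, and that spread may be technical.

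Interferons are secreted proteins that warn cells of infection. Type I and type III interferons act through the kinases Jak1 and Tyk2 on a complex that holds Stat2 and Irf9 and binds the interferon-stimulated response element in promoters, while interferon gamma acts through Jak1 and Jak2 and a promoter element named the gamma-activated sequence. The genes switched on in this way encode sensors of foreign nucleic acid, enzymes that degrade viral RNA, proteins that hold back viral entry and budding, the ubiquitin-like protein Isg15 and GTPases that attack intracellular microbes. In the liver, Kupffer cells, the resident macrophages, are among the cells known to respond to interferon.

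After filtering, 6158 of 6927 barcodes were kept, namely 1307 in control 1, 1420 in control 2, 1572 in NASH 1 and 1859 in NASH 2. The median number of unique molecular identifiers (UMIs, counted RNA molecules) per kept cell was 3391 and 3046.5 under the control diet and 7606.5 and 7403 under the NASH diet, so depth differed with diet. Measures of RNA quality also moved with diet: the median mitochondrial share of UMIs over all barcodes was 6.43% and 6.23% in control 1 and control 2 and 3.43% and 3.21% in NASH 1 and NASH 2, and the filter removed 14.8% and 20.4% of barcodes against 2.87% and 2.38%. Macrophage-like cells numbered 983, 888, 861 and 1197 in control 1, control 2, NASH 1 and NASH 2, and their clusters separated by library: a Cd163-led cluster held 854 cells of control 1 and 127 of control 2, a Marco-led cluster held 713 cells of control 2 and 86 of control 1, and 3 clusters led by Spp1, Mmp12 and Folr2 lay almost wholly in the NASH libraries. Of the sort markers, Ptprc (CD45) had a UMI in 71.5% to 80.7% of kept cells and Mcam (CD146) in 1.08% to 2.89%. The macrophage marker C1qa had a UMI in 99.3% to 99.9% of macrophage-like cells.

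Promoters of these genes often carried the core of the interferon-stimulated response element. RefSeq promoter windows of 300 bases (GRCm38.p6, 250 bases before to 50 after the start of transcription) were matched by symbol for 34 of the 44 genes. That core, GAAA followed by any 2 bases and GAAA, was found on either strand in 20 of these 34 genes (58.8%), against 1079 of all 27025 genes with a window (3.99%). Of its 31 matches, 26 lay upstream of the start, and 10 genes had 2 or more matches. The gamma-activated sequence TTCNNNGAA, which reads the same on both strands, was found in 7 of the 34 genes (20.6%) and in 9.55% of all genes. A match is a description of these letters, not of a bound site. The 150 bases upstream of the start are shown for the 3 genes with the smallest p for diet in macrophage-like cells among those whose window holds the core. They are written 5′ to 3′ on the strand of the gene, and the capitals mark the core, which matches in 2 overlapping places in each:
Oas1a, chr5:120907526-120907675, minus strand: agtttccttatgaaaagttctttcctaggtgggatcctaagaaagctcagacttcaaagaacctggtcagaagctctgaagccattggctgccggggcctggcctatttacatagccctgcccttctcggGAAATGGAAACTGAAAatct
Oas1g, chr5:120887614-120887763, minus strand: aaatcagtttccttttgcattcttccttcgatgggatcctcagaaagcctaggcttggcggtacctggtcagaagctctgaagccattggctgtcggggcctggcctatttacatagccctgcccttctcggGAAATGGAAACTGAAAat
Bst2, chr8:71537473-71537622, minus strand: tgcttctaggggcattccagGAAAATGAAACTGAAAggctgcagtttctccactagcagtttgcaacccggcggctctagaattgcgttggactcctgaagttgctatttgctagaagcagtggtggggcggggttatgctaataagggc
In Oas1a and Oas1g, neighbouring copies on chromosome 5, the same run of letters lay 20 and 18 bases before the start. In Bst2 the capitals spell another run, which lay 130 bases before the start. The core was present in 12 of the 19 matched genes that were called higher in NASH (63.2%) and in 8 of the 15 that were not (53.3%). The gamma-activated sequence was present in 6 of the 19 (31.6%) and in 1 of the 15 (6.67%), namely Gbp7, which had 2 matches and was called lower in NASH. Neither difference was tested.

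In macrophage-like cells 24 of the 44 genes rose on the NASH diet, led by size of change by Ifi44, Isg15, Oas1a, Zbp1 and Ifit3, while Irf7, Irf9, Stat2 and the p200 genes were not called in the reported setting. UMIs were summed per library, and the edgeR quasi-likelihood test, with p adjusted by Benjamini-Hochberg over all 10545 genes tested, called 24 of the 44 genes higher and 1 lower at an adjusted p under 0.05. Of all genes tested, 23.9% were called higher and 22.2% lower, so a call in this class was common. The median log2 change of the 44 genes was 0.69, and 40 of them were positive, against a median of -0.02 over all genes. That difference describes a list chosen with earlier results of these data known, and it was not tested. Levels below are CPM, the share of a library's UMIs expressed in parts per 1e6, scaled by TMM factors, a correction for differences in RNA composition, and changes are log2 of NASH over control with the standard error (SE) of the fit. In a sum over cells, fewer expressing cells and less RNA per cell cannot be told apart. Without the TMM factors all genes shifted by -0.35, the calls over all genes went from 2519 higher and 2342 lower (51.8% of calls higher) to 1467 higher and 4040 lower (26.6%), or 13.9% and 38.3% of genes tested, and the list had 18 genes higher and 2 lower with a median of 0.34.

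**Figure D1:**
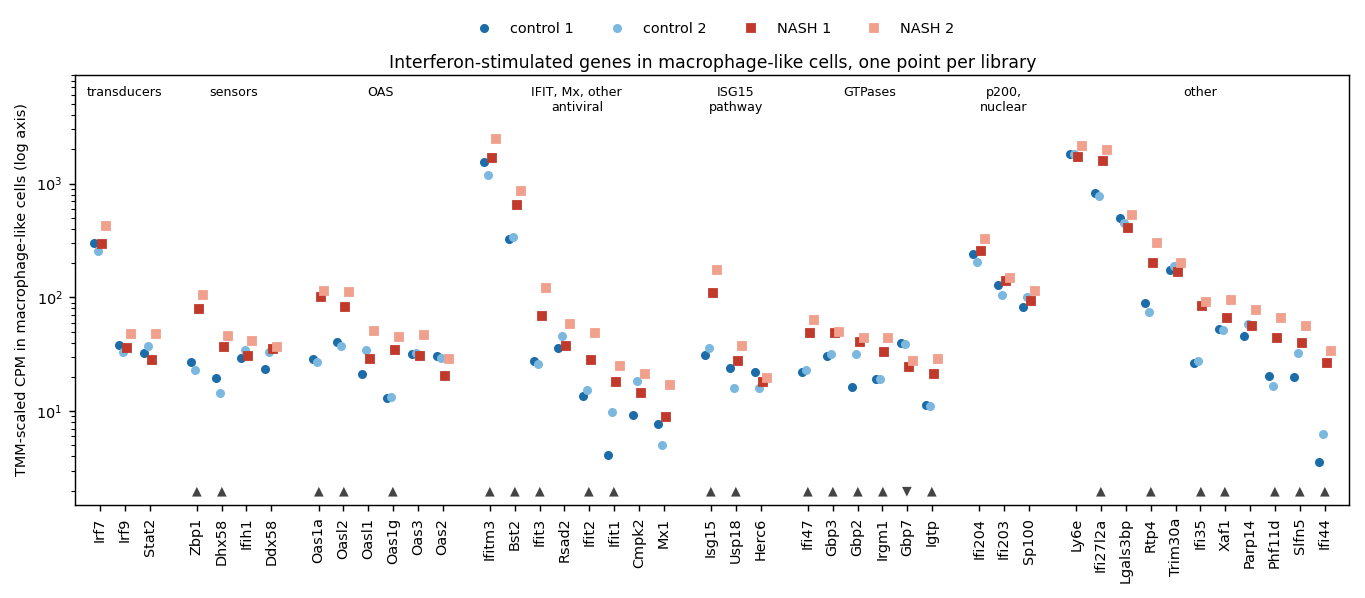
Level of each of the 44 genes in macrophage-like cells, in TMM-scaled CPM on a log axis, with 1 point per library (circles, control; squares, NASH) and genes grouped by role. Triangles at the foot mark the 24 genes called higher and the 1 called lower in NASH; Isg15, Oas1a and Zbp1 show wide gaps between diets, while Ly6e and Trim30a do not.

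The 3 transcription factors among the 44 genes were not called. Irf7, the regulator that amplifies type I interferon production, stood at 300.1 and 256.7 CPM under the control diet and at 292.7 and 420.6 CPM under the NASH diet. NASH 1 lay inside the control range, and the change of 0.36 ± 0.18 had an adjusted p of 0.13. Irf7 passed in 3 of 20 other settings: with no filter on low counts (0.41), without NASH 1 (0.61) and within Kupffer-like clusters (0.61). Irf9, the DNA-binding partner of Stat2, stood at 37.9, 33.2, 36.2 and 47.8 CPM in control 1, control 2, NASH 1 and NASH 2, with a change of 0.24 ± 0.18. Exons of Irf9 overlap those of Rnf31. None of the 3 genes of this group, which includes Stat2, was called.

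Of the 4 sensors of nucleic acid, 2 rose. Zbp1, which binds Z-form nucleic acid and can trigger cell death, stood at 26.8 and 22.8 CPM under the control diet and at 78.4 and 105.6 CPM under the NASH diet. Every NASH value was more than that of either control, and the change was 1.89 ± 0.18 (adjusted p = 3.87e-05). Dhx58, a regulator of RNA sensing, rose by 1.26 ± 0.20 (adjusted p = 0.000489). Ifih1 (MDA5), a sensor of long double-stranded RNA, gave 29.1, 34.2, 30.6 and 41.6 CPM in control 1, control 2, NASH 1 and NASH 2, so the diets overlapped. Its change of 0.20 ± 0.19 was not called, and neither was that of Ddx58 (RIG-I).

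The oligoadenylate synthetases make the messenger that activates RNase L, which degrades RNA. Within this family 3 of 6 genes rose, and they were not alike. Oas1a went from 28.6 and 27.2 CPM under the control diet to 99.8 and 113.1 CPM under the NASH diet, a change of 1.93 ± 0.15 (adjusted p = 9.64e-06) and the smallest p of the list. Oas1g was at 13.1 and 13.3 CPM against 34.6 and 45.2 CPM, a change of 1.60 ± 0.20 (adjusted p = 0.000126). Oasl2, a relative with a ubiquitin-like tail, was at 40.2 and 37.0 CPM against 83.1 and 111.9 CPM, a change of 1.34 ± 0.17 (adjusted p = 0.000157). For each of these 3 genes the lower NASH library was at least as far above the controls as the controls were from each other. Oas2, Oas3 and Oasl1 gave changes of -0.28 ± 0.19, 0.27 ± 0.21 and 0.55 ± 0.36 and were not called. Oas1a and Oas1g are near-identical copies, so how reads were split between them is uncertain.

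Among the antiviral effectors 5 of 8 rose. Ifitm3, a membrane protein that blocks viral entry and the gene of this group with the most UMIs, gave 1549 and 1200 CPM under the control diet and 1668 and 2481 CPM under the NASH diet. Its change of 0.59 ± 0.21 passed narrowly (adjusted p = 0.0475), and it did not pass in 8 of 20 other settings, among them without control 1 (0.79), without control 2 (0.42) and without NASH 2 (0.31). Bst2 (tetherin), which holds budding virus at the cell surface, gave 326.6 and 338.7 CPM against 652.3 and 860.1 CPM, and the libraries separated by diet. The change of Bst2 was 1.19 ± 0.16 (adjusted p = 0.000174). Ifit3, a partner of Ifit1 in binding viral RNA that was named after its values were seen, gave 27.6 and 26.0 CPM against 68.6 and 120.1 CPM, a change of 1.82 ± 0.28 (adjusted p = 0.00233). Its neighbours on chromosome 19 rose as well, Ifit1 by 1.67 ± 0.35 and Ifit2 by 1.43 ± 0.28. Ifit2 and Ifit3 lost their call without control 1 and without control 2. Rsad2 (viperin), an enzyme that makes a chain terminator of viral RNA synthesis, gave 36.1, 45.9, 37.6 and 58.3 CPM in control 1, control 2, NASH 1 and NASH 2. The diets overlapped for Rsad2, and its change of 0.24 ± 0.23 was not called. Reads of Ifit3 may be shared with its near-identical copy.

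In the Isg15 system 2 of 3 genes rose. Isg15, which is joined to other proteins like ubiquitin, stood at 31.5 and 36.1 CPM under the control diet and at 108.7 and 173.1 CPM under the NASH diet. Both NASH values were far above both controls, and the change was 2.07 ± 0.23 (adjusted p = 0.000283). Without control 1 the change was 1.97 with an adjusted p of 0.121, and without control 2 it was 2.17 with 0.0902. Usp18, the protease that removes Isg15 and damps the type I receptor, gave 23.7, 15.8, 27.4 and 37.6 CPM in control 1, control 2, NASH 1 and NASH 2, a change of 0.71 ± 0.23 (adjusted p = 0.0303). Usp18 did not pass in 8 of 20 other settings, among them without control 2 (0.47) and without NASH 2 (0.48). Herc6, the ligase that attaches Isg15 in mice, gave a change of -0.02 ± 0.20.

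The interferon-inducible GTPases, which are better known as targets of interferon gamma, held 5 genes that rose and the only gene that fell. Ifi47 gave 21.9 and 22.8 CPM under the control diet against 48.3 and 63.4 CPM under the NASH diet, a change of 1.33 ± 0.18 (adjusted p = 0.000226). Gbp3 gave 30.4 and 32.0 CPM against 48.9 and 49.8 CPM, a change of 0.66 ± 0.15 (adjusted p = 0.00435). Igtp, Irgm1 and Gbp2 rose by 1.16, 1.00 and 0.84, and Gbp2 lost its call without control 1, without NASH 1 and without NASH 2. Gbp7 went the other way, from 39.7 and 38.9 CPM to 24.7 and 27.8 CPM. Its change of -0.58 ± 0.16 (adjusted p = 0.0111) was against its neighbours Gbp2 and Gbp3 on chromosome 3, and it did not pass in 4 of 20 other settings, among them without NASH 1 (-0.49). Within Kupffer-like clusters alone Gbp7 changed by -0.36 (adjusted p = 0.115). Igtp shares exons with Irgm2 and Ifi47 with Olfr56.

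The p200 proteins sense DNA in the nucleus and cytoplasm, and Sp100 forms nuclear bodies. None of these 3 genes was called. Ifi204 gave 242.1 and 202.9 CPM under the control diet and 253.9 and 322.7 CPM under the NASH diet, a change of 0.37 ± 0.15 (adjusted p = 0.0675). Ifi203 gave 127.4 and 105.7 CPM against 138.1 and 147.4 CPM, a change of 0.29 ± 0.14 (adjusted p = 0.107). The NASH values of both genes lay above the control values, but neither gene passed the threshold. Ifi204 passed in 6 of 20 other settings, among them without control 1 (0.51) and within Kupffer-like clusters (0.50). Ifi203 passed in 3, without control 1 (0.43), within Kupffer-like clusters (0.44) and without the Cd163-led cluster (0.44). Genes of the p200 family are similar in sequence and Ifi203 shares exons with Mndal, so their counts are uncertain.

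Of the other 11 genes 7 rose, among them genes with many UMIs and genes with few. Ly6e, a surface protein that restricts coronaviruses and the gene with the most UMIs of the list under the control diet, gave 1821, 1829, 1722 and 2150 CPM in control 1, control 2, NASH 1 and NASH 2, with a change of 0.09 ± 0.15. Ifi27l2a, a small membrane protein, gave 828.1 and 782.5 CPM under the control diet against 1578 and 1965 CPM under the NASH diet, a change of 1.14 ± 0.15 (adjusted p = 0.000164). Ifi44 had the lowest level of those named, with 3.61 and 6.33 CPM against 26.5 and 34.1 CPM, and it had the largest change of the list at 2.64 ± 0.27 (adjusted p = 5.00e-05). Ifi35 gave 26.3 and 27.9 CPM against 83.7 and 90.5 CPM, a change of 1.69 ± 0.15 (adjusted p = 1.92e-05). The 4 libraries of Ifi35 formed 2 tight pairs. Xaf1, a promoter of apoptosis, gave 53.1 and 51.6 CPM against 65.9 and 95.7 CPM, a change of 0.63 ± 0.18 (adjusted p = 0.0169), and did not pass in 5 of 20 other settings, among them without control 1 (0.65), control 2 (0.61) or NASH 2 (0.36). Rtp4, Phf11d and Slfn5 rose by 1.60, 1.55 and 0.88, and Slfn5 lost its call without control 1 and without NASH 2. Lgals3bp and Trim30a gave -0.02 and 0.03.

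Across 21 settings, the reported one included, 14 genes were called higher in each: Bst2, Dhx58, Ifi27l2a, Ifi35, Ifi44, Ifi47, Igtp, Irgm1, Oas1a, Oas1g, Oasl2, Phf11d, Rtp4 and Zbp1. Another 9 genes, not called in the reported setting, were called higher in at least 1 other, Mx1 in 10, Ifi204 in 6 and the rest (Cmpk2, Ddx58, Ifi203, Irf7, Oasl1, Parp14 and Rsad2) in 1 to 3. With a stricter cell filter (at least 500 genes and at most 5% mitochondrial UMIs) 22 were called higher (13.9% of all genes tested) and 0 lower (12.8%), and the part of RNA quality in the results was otherwise not tested. Within the Kupffer-like clusters, which had UMIs of both Clec4f and Vsig4 in 80% or more of their cells, 30 genes were called higher (21.1% of all genes tested) and 0 lower (1755 of 9755 genes, 18%). These cells sat in different clusters by diet, in clusters 1 and 2 (Cd163-led and Marco-led) under the control diet and in clusters 9 and 10 (Mmp12-led and Folr2-led) under the NASH diet. Timd4, another Kupffer marker, had a UMI in 70.8% and 69.7% of cells of clusters 1 and 2 and in 18.6% and 51.7% of those of clusters 9 and 10. Gpnmb had a UMI in 0.1% and 0.2% against 46.5% and 14.3%. The cells compared thus differed in these markers as well as in diet. Monocyte markers summed to 749, 622, 751 and 839 CPM in macrophage-like cells of control 1, control 2, NASH 1 and NASH 2, and those of plasmacytoid dendritic cells to 280, 261, 281 and 282 CPM. Natural killer markers moved with diet, at 57, 104, 398 and 309 CPM, with 11 to 13 of 13 markers detected and Klra4 and Prf1 at 0 in control 1. Without cells holding a UMI of Siglech, Cd79a, Cd3e, Nkg7, Chil3 or Ly6c2, the count was 24 higher (23.1% of all genes tested) and 1 lower (21.4%). The share of all kept cells made up by each class also differed, and over all kept cells of a library, with no classes, 24 genes were called higher (18.2% of all 12126 genes tested) and 0 lower (16.6%). Without NASH 2 that count was 12.

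Genes of the interferon pathway upstream of the list were also measured. Of 52 pathway genes listed, 29 were abundant enough to test in macrophage-like cells, and 4 were called higher and 6 lower, with a median change of -0.19. Both shares lay below those over all genes (23.9% higher and 22.2% lower), so the counts do not set the pathway apart. The genes named here as higher are transcription factors. Irf8, which directs macrophage and dendritic cell identity, gave 189.2 and 157.3 CPM under the control diet and 276.0 and 303.5 CPM under the NASH diet, a change of 0.74 ± 0.14 (adjusted p = 0.00152). Irf5 and Irf3 changed by 0.42 and 0.48.

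The receptors, kinases and restraints held no gene called higher. Ifngr1, the ligand-binding chain of the interferon gamma receptor, fell by 0.49 on the log2 scale, and the chains of the type I receptor, Ifnar1 and Ifnar2, gave changes of 0.30 and 0.06 that were not called. The kinase Jak1 gave 190.8 and 169.7 CPM under the control diet against 127.3 and 118.9 CPM under the NASH diet, a change of -0.55 (adjusted p = 0.00577), and Tyk2 fell by 0.69. Of the genes that restrain signalling, Pias1 gave 93.8 and 72.2 CPM against 44.2 and 42.0 CPM, a change of -0.95 (adjusted p = 0.000712). Samhd1, which depletes nucleotides, and Tlr3, an endosomal sensor of double-stranded RNA, fell by 0.45 and 0.60.

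Outside the class named macrophage-like, 5 classes had at least 10 cells in each library, and fewer members passed the filter on low counts there. In cycling cells 9 of 40 genes tested were called higher (13.9% of all genes tested) and 0 lower (11.5%), with a median of 0.42. Ifit3 gave 3.84 and 20.1 CPM under the control diet and 51.6 and 94.7 CPM under the NASH diet, a change of 2.73. Phf11d gave 7.68 and 10.1 CPM against 63.8 and 92.3 CPM, a change of 3.14. Bst2 gave 195.9 and 261.6 CPM against 600.4 and 651.0 CPM, a change of 1.47, and Ifitm3 gave 1091 and 920.5 CPM against 1997 and 2251 CPM, a change of 1.07. Adjusted p ran from 2.61e-05 for Ifitm3 to 0.0253 for Usp18 over the genes called. The others called were Isg15, Usp18, Oas1a, Rtp4 and Zbp1. Cluster 0 held most of this class in the control libraries and cluster 8 in the NASH libraries. Clec4f had a UMI in 96.7% of the cells of cluster 0 and in 77.0% of those of cluster 8, and Vsig4 in 90.2% and 61.5%. Timd4, also a Kupffer marker, had a UMI in 65.2% and 17.6%, Gpnmb in 0.0% and 39.2% and Ccr2 in 0.0% and 50.7%. Most cycling cells thus carried Clec4f and Vsig4, and the class is not a cell type apart from macrophages. The cycling cells of the control and NASH libraries differed in the other markers, and the part of this in the diet calls was not tested. With a stricter cell filter only 1 gene was called.

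Endothelial-like cells, which the sort was set to leave out, had 2 of 29 genes called higher (3.39% of all genes tested) and 1 lower (4.45%). Ifi27l2a gave 350.8 and 304.1 CPM under the control diet and 948.0 and 972.4 CPM under the NASH diet, a change of 1.56 (adjusted p = 0.000467). Isg15 gave 73.3 and 33.8 CPM against 113.2 and 196.2 CPM, a change of 1.59 (adjusted p = 0.0295). Rsad2 went the other way, with 136.1 and 107.5 CPM against 50.9 and 48.0 CPM, a change of -1.26 (adjusted p = 0.0401) that rested on 11 to 35 UMIs per library. The count of higher genes was 7 without control 1, 1 without control 2 and 5 without NASH 1, and the lower call was lost without control 1, NASH 1 or NASH 2. Macrophage markers summed to 5371, 3441, 8897 and 5931 CPM in endothelial-like cells of control 1, control 2, NASH 1 and NASH 2, and their part in these results was not tested.

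In lymphocytes and plasmacytoid dendritic cells edgeR called no member by diet. In B cell-like cells 0 of 8 members were called (1.79% of all genes tested), 0 of 8 at an unadjusted p under 0.05 (11.4%), and DESeq2 called 0 of 4 (4.43%). In NK cell or ILC1-like cells 0 of 16 were called (0.618%), Bst2 and Ifi47 had an unadjusted p under 0.05 (2 of 16, against 9.69%), and DESeq2 called 0 of 8 (1.81%). That class also held T cells, with Cd3g and Cd3d among its leading genes beside Ncr1 and Klrb1c. At Leiden resolution 2.0 a T cell-like cluster of 181 cells stood beside an NK cell or ILC1-like cluster of 96. In plasmacytoid dendritic cell-like cells 0 of 14 were called (2.33%), 4 had an unadjusted p under 0.05 (Ifitm3, Lgals3bp, Ly6e and Usp18, against 11.4%), and DESeq2 called 0 of 6 (3.93%). Each of these classes held 26 to 173 cells per library, and cycling cells, with 9 calls, held 48 to 73. Cycling cells had more UMIs in the NASH libraries, however, with 864876 and 965599 in NASH 1 and NASH 2. The totals there were 168702 and 369503 in B cell-like, 371862 and 512881 in NK cell or ILC1-like and 264913 and 268648 in plasmacytoid dendritic cell-like cells. This did not hold in control 1 and control 2, where cycling cells had 245530 and 183150 UMIs. The control totals were 170687 and 205366 in B cell-like and 132748 and 214873 in NK cell or ILC1-like cells. In plasmacytoid dendritic cell-like cells they were 380738 and 790665. In cycling cells 40 members could be tested, so the counts of calls cannot be compared directly. Leaving out a library gave 2 NK cell or ILC1-like calls without control 1 and 1 without control 2, and 1, 1 and 4 plasmacytoid dendritic cell-like calls without control 2, NASH 1 and NASH 2.

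**Figure D2:**
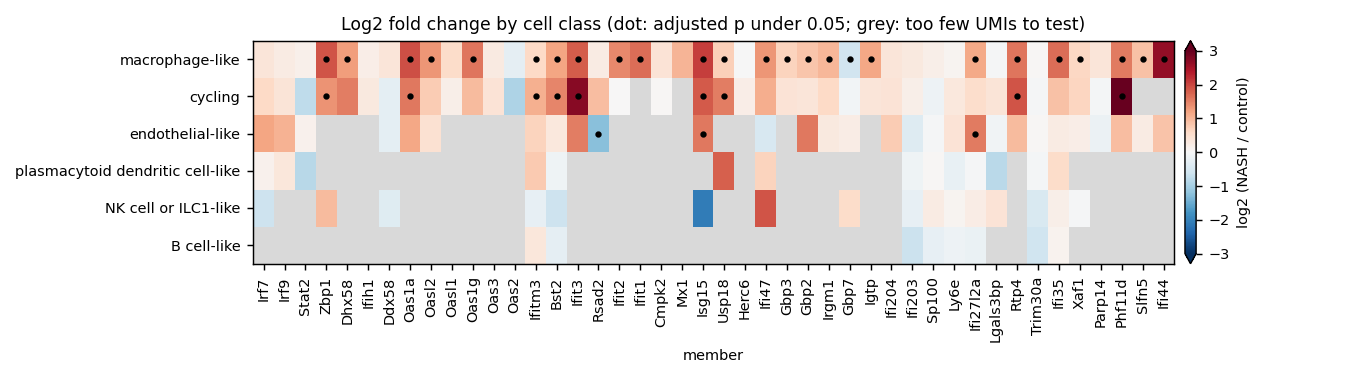
Log2 change (NASH over control) of each member in each cell class tested, with red for higher and blue for lower in NASH, dots for adjusted p under 0.05 and grey for members with too few UMIs to test. Dots fill 25 fields of the macrophage-like line, 9 of the cycling line and 3 of the endothelial-like line, and none of the lines for plasmacytoid dendritic, NK or ILC1 and B cells.

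The difference between classes was tested directly, as the interaction of diet and class with the library as a block. Bst2 showed it most plainly. In plasmacytoid dendritic cell-like cells, where it is a known surface marker, Bst2 was at 4665, 4492, 3916 and 4454 CPM in control 1, control 2, NASH 1 and NASH 2, and its diet change differed by -1.22 on the log2 scale from that in macrophage-like cells (adjusted p = 2.86e-08). Ifi27l2a, at 863.6, 1066, 640.3 and 1244 CPM in that class, differed by -1.13 (adjusted p = 3.37e-06). In all, 7 members differed in plasmacytoid dendritic cell-like cells (8.53% of all genes tested). For Ifi44, Isg15, Oasl2 and Xaf1 the value rests on 0 to 30 UMIs per library in that class. The change of Ifi35 differed by -1.01.

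Bst2 and Ifi27l2a also differed in B cell-like cells, by -1.40 (adjusted p = 0.0190) and -1.30 (adjusted p = 1.62e-05), and these were the 2 members called there (3.47%). In B cell-like cells Ifi27l2a was at 673.5, 554.4, 441.3 and 613.0 CPM. In NK cell or ILC1-like cells 2 members differed (3.22%), Bst2 by -1.62 (adjusted p = 4.02e-05) and Rsad2 by -3.60 (adjusted p = 0.000228). The Rsad2 value there comes from 0, 19, 0 and 4 UMIs in control 1, control 2, NASH 1 and NASH 2, and Isg15 in that class had 0, 50, 15 and 13. Endothelial-like cells had 3 members that differed (3.23%), Ifi35, Rsad2 and Ifit2, by -1.41, -1.40 and -2.08. In cycling cells 2 differed (0.479%), with a difference of 0.53 for Ifitm3 and of -0.58 for Ifi27l2a. Leaving out a library moved these counts: to 4, 2 and 4 in plasmacytoid dendritic cell-like cells without control 1, control 2 and NASH 2, to 1 in B cell-like cells without control 1 or NASH 2, to 4 in NK cell or ILC1-like cells without control 1 and to 1 without any other library, to 1 in endothelial-like cells without NASH 1, and to 0 or 1 in cycling cells without control 1, control 2 or NASH 1.

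Classes also differed in the level of the members. As CPM of the class total, with no scaling factors, the 44 members summed to 12336 and 13106 in monocyte-like cells of the NASH libraries and to 8305 to 9272 in plasmacytoid dendritic cell-like cells. Macrophage-like cells gave 7702, 7233, 7505 and 10204 in control 1, control 2, NASH 1 and NASH 2, so on this scale NASH 1 lay between the control libraries and only NASH 2 above them. Cycling cells ranged from 7076 to 10617 and endothelial-like cells from 5128 to 8733, and these ranges overlapped that of the macrophages. B cell-like cells (2849 to 3339), NK cell or ILC1-like cells (3028 to 3776) and dendritic cell-like cells (3002 to 3492) lay lowest among the leukocytes with several libraries, and they overlapped each other. The control libraries held 3 and 9 monocyte-like cells, too few for a level.

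**Figure D3:**
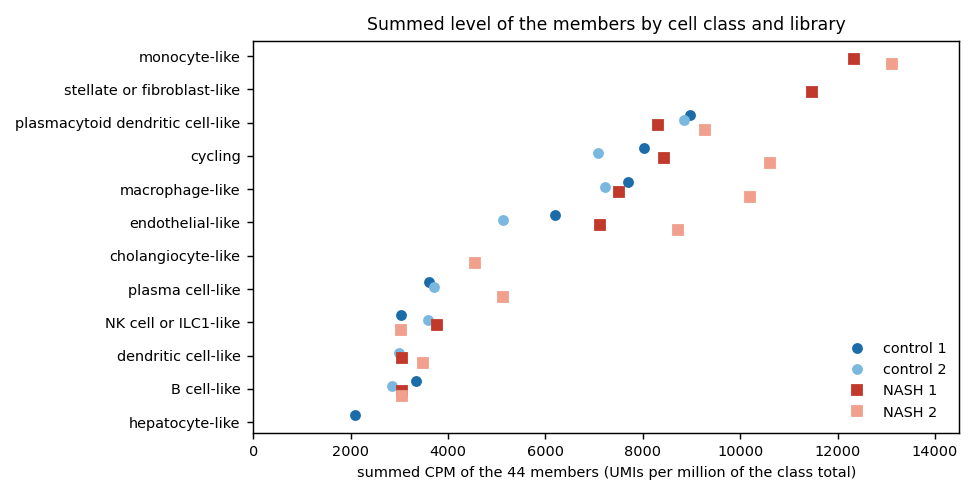
Summed CPM of the 44 members, relative to the class total, for each class and library with at least 10 cells (circles, control; squares, NASH). Monocyte-like cells of the NASH libraries lie at 12336 and 13106, and B, NK or ILC1 and dendritic cell-like cells lie between 2849 and 3776.

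A few genes made up most of that sum, and they differed by class. In macrophage-like cells Ly6e, Ifitm3, Ifi27l2a, Lgals3bp and Bst2 held 70.0% to 73.3% of member UMIs. In plasmacytoid dendritic cell-like cells the 5 leading genes held 89.0% to 91.4%, with Bst2 in the lead. Against macrophage-like cells of the same libraries, Bst2 was higher there by 3.02 ± 0.28 on the log2 scale (adjusted p = 7.80e-08), and Ifitm3 differed by -4.29 ± 0.30. Sp100 was the other gene called higher there, and of the 43 tested 29 were lower (18.9% of all genes tested were higher and 26.3% lower). B cell-like cells had 1 member higher, Sp100 at 0.86, and 30 of 41 lower (15.5% and 22.9% of all genes). NK cell or ILC1-like cells had 1 higher, Sp100 at 0.59, and 26 of 43 lower (17.4% and 23.2%), and the Sp100 call was lost without control 2, NASH 1 or NASH 2. Endothelial-like cells had 1 higher, Sp100 at 1.04, and 15 of 43 lower (15.2% and 16.7%). Cycling cells had 2 of 44 higher, Ifi27l2a at 0.71 and Irf9 at 0.45, and 13 lower (12.0% and 11.6%), or 8 lower without NASH 2. Macrophage markers, counted to show RNA of macrophages in other classes, summed to 679 to 1302 CPM in the B, NK or ILC1 and plasmacytoid classes, against 26067 to 30810 CPM in macrophage-like cells.

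Among macrophage-like clusters of the NASH libraries, the one led by Folr2 and Ccl24 (cluster 10) had the highest mean, 10.6 and 13.9 member UMIs per 1000 in NASH 1 and NASH 2, against 5.82 and 6.90 in the cluster led by Spp1 and Gpnmb (cluster 7). Ifitm3, in CPM of the cluster total, was at 3281 and 4188 in that cluster of NASH 1 and NASH 2, against 942.5 and 1171 in cluster 7. Ifi44 was at 36.4 and 44.8 in cluster 10 and at 12.7 and 12.1 in cluster 7. Oas1a varied less, from 84.6 to 91.0 over the 4 main clusters of NASH 1 and from 79.6 to 122.5 over those of NASH 2. In the Cd163-led and Marco-led clusters of the control libraries Oas1a lay between 29.1 and 35.1. Isg15 lay between 78.3 and 182.2 in every main NASH cluster and between 13.2 and 41.9 in the control clusters, so for these 2 genes no main NASH cluster overlapped a control cluster.

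Whether all cells or a few carried the signal was asked on macrophage-like cells thinned to 1000 UMIs each, which sets the depth of both diets equal. The 44 members together were detected in nearly every cell, and cells with none of them made up 0.103%, 0.796%, 0.929% and 0.251% in control 1, control 2, NASH 1 and NASH 2. The mean per cell was 7.30, 6.96, 7.35 and 10.1 UMIs. The spread was wider in NASH: the variance over the mean, which is 1 for pure counting, was 1.38 and 1.78 under the control diet and 2.46 and 2.96 under the NASH diet. The 10% of cells with the most member UMIs held 18.2% and 20.2% of them under the control diet and 22.0% and 20.8% under the NASH diet. A small group of cells thus did not hold most of the member UMIs. Most of these UMIs came from 5 genes, so the shares do not show how the change with diet was spread over cells.

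The 5 members with the most UMIs were then left out, which gave a list of 39. These had a mean of 2.08, 2.07, 2.21 and 3.09 UMIs per cell and a variance over the mean of 1.25, 1.51, 1.79 and 2.01 in control 1, control 2, NASH 1 and NASH 2. As a comparison, 14 proteasome genes had a mean of 1.95, 1.96, 3.12 and 3.35 and a variance over the mean of 1.13, 1.10, 1.22 and 1.27. Their level was similar to that of the 39 members in the control libraries and higher in the NASH libraries. At these means the members were more uneven over cells than the proteasome genes in each library. In the thinned cells Isg15 had a UMI in 3.30%, 3.98%, 8.48% and 14.6% of cells of control 1, control 2, NASH 1 and NASH 2, and Ifi27l2a in 49.3%, 44.9%, 64.0% and 72.7%. Without thinning the shares were 10.3%, 10.8%, 37.7% and 52.5% for Isg15 and 76.0%, 68.6%, 95.9% and 96.4% for Ifi27l2a. No class here is known to lack these genes, so the part of free RNA in these shares was not tested.

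**Figure D4:**
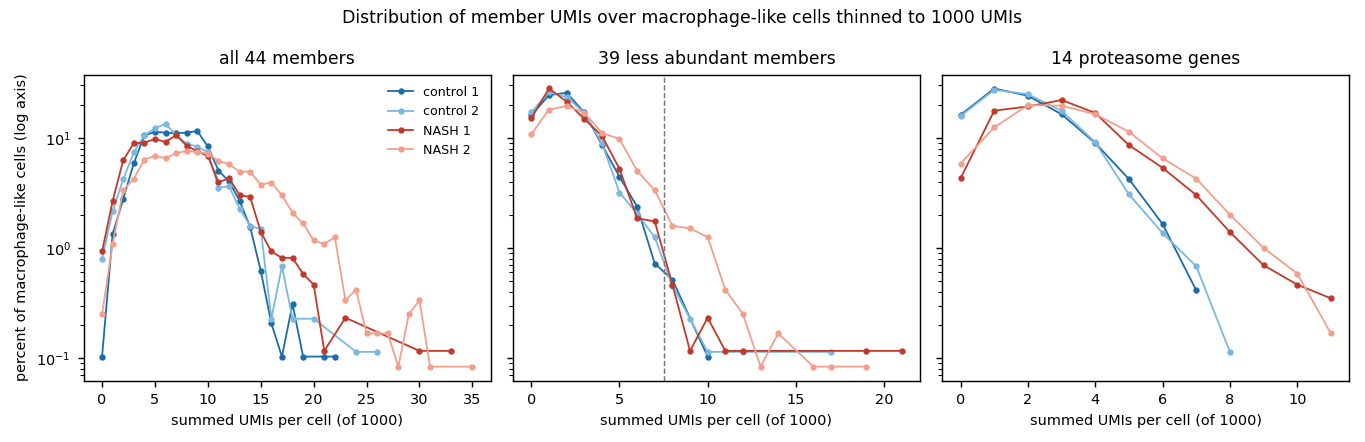
Percent of macrophage-like cells (log axis) with each number of summed UMIs, in cells thinned to 1000 UMIs, for all 44 members, for the 39 with fewer UMIs and for 14 proteasome genes; 1 line per library joins the values that occurred. The dashed line in the middle plot marks 8 UMIs, and the NASH 2 line lies above the others to its right.

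A tail of cells with many member UMIs was seen mostly in 1 library. Cells with at least 8 of 1000 UMIs from the 39 members with fewer UMIs numbered 6 of 970 in control 1 (0.619%, exact Clopper-Pearson 95% interval 0.227% to 1.34%) and 9 of 879 in control 2 (1.02%, 0.469% to 1.93%). They numbered 11 of 861 in NASH 1 (1.28%, 0.639% to 2.27%) and 66 of 1197 in NASH 2 (5.51%, 4.29% to 6.96%). NASH 1 thus lay near the control libraries, and the NASH libraries differed from each other more than NASH 1 did from the controls. These intervals cover counting error only. The boundary of 8 cuts a continuous range: 40 cells of NASH 2 had 7 UMIs and 19 had exactly 8. In NASH 2 these cells held 17.5% of the UMIs of the 39 genes, and the mean without them was 2.70, against 2.04, 1.99 and 2.09 in control 1, control 2 and NASH 1. With them left out of all libraries, 23 members were still called higher (24.0% of all genes tested), so most of the diet calls did not rest on them.

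The cells of the tail were spread over all main clusters of NASH 2 and were most frequent in the cluster led by Cd207 and Cx3cr1 (cluster 13). There 29 of 283 cells of NASH 2 belonged to it (10.2%, 6.97% to 14.4%), and 5 of 184 cells of NASH 1 (2.72%, 0.888% to 6.23%). In NASH 2 the share was 5.20% in cluster 10, 4.07% in the Mmp12-led cluster and 3.03% in cluster 7. In monocyte-like cells it was 5 of 99 cells of NASH 1 (5.05%) and 7 of 71 of NASH 2 (9.86%). In the cells left unnamed it was 7 of 183 (3.83%) and 9 of 108 (8.33%). Median depth was 7880 UMIs in the cells of the tail in NASH 2 and 7849 in the rest. Siglech had a UMI in 1.52% of them and in 1.24% of the rest, Cd79a in 6.06% and 5.84%, and Cd3e in 3.03% and 2.30%. Nkg7 had one in 3.03% and 5.92%, and Clec4f in 69.7% and 72.3%. The monocyte markers did not go one way, with Ly6c2 in 7.58% and 9.73%, Chil3 in 3.03% and 3.45% and Ccr2 in 33.3% and 27.9%.

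**Figure D5:**
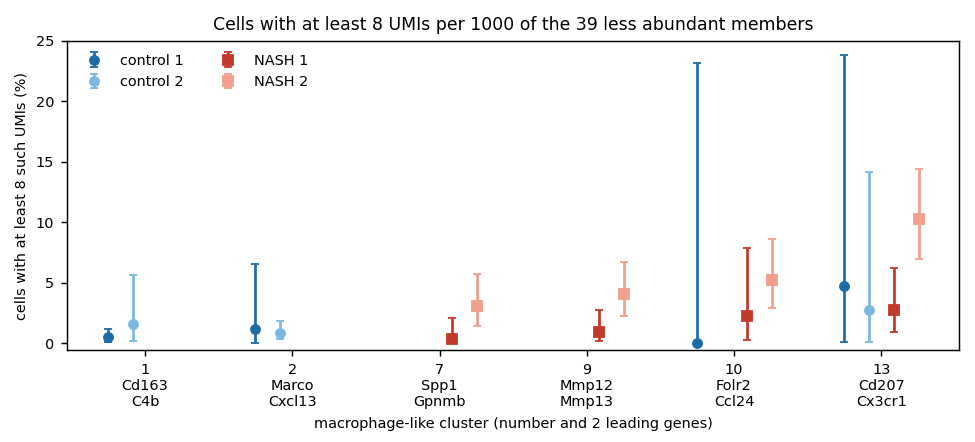
Percent of cells with at least 8 of 1000 UMIs from the 39 members with fewer UMIs, by macrophage-like cluster and library, with exact 95% intervals. NASH 2 reaches 10.2% in cluster 13, and the control values of clusters 10 and 13 rest on few cells and have wide intervals.

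Single members were then set against this tail. With cells chosen each time on the other members only, Ifit3 had a UMI in 41.8% of the chosen cells of NASH 2 and in 7.53% of the rest, and Isg15 in 40.4% and 13.3%. The chosen cells, 4.59% to 5.43% of all, held 29 of 130 UMIs of Ifit3 (22.3%), 12 of 58 of Rsad2 (20.7%), 30 of 201 of Isg15 (14.9%), 3 of 35 of Ifi44 (8.57%) and 10 of 118 of Oas1a (8.47%). In NASH 1, where 9 to 11 cells were chosen, they held 9 of 42 UMIs of Ifit3 (21.4%), 2 of 30 of Rsad2 (6.67%), 9 of 83 of Isg15 (10.8%), 1 of 17 of Ifi44 (5.88%) and 3 of 65 of Oas1a (4.62%). These 5 genes were picked after their values were seen, and differences between them were not tested.

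The ligands were almost absent from the libraries. Of 20 interferon genes listed, 5 had a UMI in any kept cell, and none could be tested. The other 15 had a UMI in 0 of 6158 kept cells. For each of them, a limit of 3 cells in a library allows a share of up to 0.161% (NASH 2) to 0.230% (control 1) of its cells with a UMI, for counting error only. In NASH 2, 1 dendritic cell-like cell held 4 UMIs of Ifnb1, 33 of Ifnl2 and 42 of Ifnl3, together with 56 of Isg15 and 109 of Il12b, which encodes a subunit of interleukin 12. It lay in the cluster led by Fscn1, Ccr7 and Ccl22, genes of mature migratory dendritic cells, had 10619 UMIs in all and had 39 of the members detected. It held 0 UMIs of C1qa, and its doublet score was 0.12, against a median of 0.046 in its library. Its 39 members with fewer UMIs made up 23.2 per 1000 UMIs, against a median of 0.901 and a highest value of 6.86 in the other 40 cells of that cluster and library. Ifnl2 and Ifnl3 are near-identical, so their counts are uncertain. A single cycling cell of NASH 2 held 2 UMIs of Ifna2. That cell had 23246 UMIs in all, against a median of 12766 in its cluster and library. Its doublet score was 0.092, against the same library median of 0.046, and it held 82 UMIs of C1qa and 27 of Clec4f. Ifng, the gene of interferon gamma, had 0, 7, 7 and 14 UMIs in control 1, control 2, NASH 1 and NASH 2, of which 0, 4, 6 and 7 lay in NK cell or ILC1-like cells and 0, 1, 1 and 5 in macrophage-like cells.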

How the data were processed

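The counts deposited by the authors were raw UMI numbers per gene and cell in 4 matrices. The submitters' processing notes name Cell Ranger, Seurat and mm10. How cells were called and whether strand was used in counting is not given in the sources used here. Pairs of libraries shared 1 to 5 barcodes.

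Cells with 200 or more genes and 10% or less mitochondrial UMIs were kept, and putative doublets by Scrublet score were left out at 0.8% per 1000 cells (14, 17, 20 and 28 cells). Scanpy 1.11.5 clustered the cells from 2000 variable genes, without the members and pathway genes, with 30 principal components, 15 neighbours and Leiden resolution 1.0 (igraph 0.11.9). Clusters were named "-like" from marker lists (at least 3 markers each in 25% of cells), and C1q genes in 90% of cells marked macrophages. UMIs were summed per library and class with at least 10 cells per library. EdgeR 4.0.16 (R 4.3.3) used TMM factors, filterByExpr, the robust quasi-likelihood test and Benjamini-Hochberg adjustment over all genes tested, at 0.05. DESeq2 1.42.0 was an alternative. An exact permutation test of 2 libraries against 2 could not pass 0.05. Scripts were tested on simulated data.

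The genes named with values in each library were, per role, the 2 with the highest mean CPM, the 8 with the smallest p, those called lower in any class, those with an interaction call and pathway genes past the threshold. The values of 1 pathway gene are not reported here. The members and lists were chosen with earlier results of these data known. Spread over cells was measured after thinning to 1000 UMIs, with exact Clopper-Pearson 95% intervals. Positions and overlaps of genes come from GENCODE vM21 (mm10), and promoters from RefSeq (GRCm38.p6). The alternatives covered scaling, filters, clusters, doublets and each library left out.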

Additional observations from a re-analysis of the deposited data

Results flagged for a closer look

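For 16 pairs of member and class, the change with diet differed from that in macrophage-like cells by the interaction test, each given as the log2 change in the class minus that in macrophage-like cells. In B cell-like cells the difference was -1.40 for Bst2 and -1.30 for Ifi27l2a, and in NK cell or ILC1-like cells it was -1.62 for Bst2 and -3.60 for Rsad2. In cycling cells it was 0.53 for Ifitm3 and -0.58 for Ifi27l2a. In endothelial-like cells it was -1.41 for Ifi35, -1.40 for Rsad2 and -2.08 for Ifit2. In plasmacytoid dendritic cell-like cells it was -3.02 for Ifi44, -2.17 for Isg15, -1.89 for Oasl2, -1.22 for Bst2, -3.26 for Xaf1, -1.01 for Ifi35 and -1.13 for Ifi27l2a. All but those for Ifitm3 were less in the class than in macrophage-like cells. Of all genes tested, 3.47% differed in B cell-like, 3.22% in NK cell or ILC1-like and 0.479% in cycling cells. The share was 3.23% in endothelial-like and 8.53% in plasmacytoid dendritic cell-like cells. The value of Rsad2 in NK cell or ILC1-like cells rests on 0, 19, 0 and 4 UMIs in control 1, control 2, NASH 1 and NASH 2. Those of Ifi44, Isg15, Oasl2 and Xaf1 in plasmacytoid dendritic cell-like cells rest on few UMIs. Diet groups of 2 libraries were too small for a check of single libraries that stand apart.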

How the results depend on the processing

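Changed settings, 5 kinds of them chosen after seeing the data (Kupffer-like clusters only, cells with marker UMIs of other classes left out, library-led clusters left out, class totals with no factors, cells with the most member UMIs left out), gave 237 values for 26 counts, of which 175 stayed within 1.5 times. Of 440 log2 changes of 22 named members, 389 kept their direction and side of the threshold, 28 lost their call, 13 gained one and 10 changed sign, all from members that were not called. With a library left out, the lone library of its diet is assumed to vary like the others. NK cell or ILC1-like cells at Leiden resolution 2.0 were not run, because T cell-like cells formed their own cluster there and control 1 kept only 6 cells. The causes of these shifts were not tested. In B cell-like, NK cell or ILC1-like and plasmacytoid dendritic cell-like cells 8, 16 and 14 of the 44 members passed the filter on low counts, and the rest could not be tested there.

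Signs changed for Irf9 thinned (-0.0058) and without factors (-0.10), Ifih1 without factors (-0.14), Rsad2 without factors (-0.11), Ifi203 without factors (-0.056), and Ly6e with the stricter cell filter (-0.038) and without factors (-0.26). Over libraries left out, Ifih1 ran from -0.017 to 0.41, Rsad2 from -0.094 to 0.52 and Ly6e from -0.055 to 0.25, each lowest without NASH 2.

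Counts of members moved as follows. Macrophage-like, lower: 0 by DESeq2, with the stricter filter and in Kupffer-like clusters, 2 without factors, and 0 to 1 over libraries left out. Cycling, higher: 18 with no filter on low counts, 4 thinned, 1 with the stricter cell filter and 15 at resolution 2.0. Cycling, lower: 1 thinned, at resolution 2.0 and with 3 times the doublets left out. Endothelial-like, higher: 7 with no filter, 1 by DESeq2, 1 thinned, 4 with the stricter filter, 6 at resolution 2.0, and 1 to 7 over libraries left out. Endothelial-like, lower: 0 by DESeq2 and with 3 times the doublets left out, and 0 to 1 over libraries left out. With no filter on low counts, NK cell or ILC1-like had 2 calls and plasmacytoid dendritic cell-like had 1. Over libraries left out these had 0 to 2 and 0 to 4, and all kept cells had 12 to 21 higher and 0 to 1 lower.

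Interaction counts with no filter were 1 for B cell-like, 1 for cycling and 5 for endothelial-like cells. With upper-quartile factors they were 1 for cycling and 5 for endothelial-like cells. Over libraries left out they ran from 1 to 2 for B cell-like, 1 to 4 for NK cell or ILC1-like, 0 to 2 for cycling, 1 to 2 for endothelial-like and 2 to 5 for plasmacytoid dendritic cell-like cells. For levels against macrophage-like cells, upper-quartile factors gave 2 higher in NK cell or ILC1-like and 1 in cycling cells. Libraries left out gave 0 to 2 and 1 to 2 higher, and 8 to 12 lower in cycling cells.

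Thinned to 2000 UMIs, the variance over the mean was 2.08 in control and 4.39 in NASH, and the top 10% of cells held 17.7% and 20.2%. At the reported depth of 1000 UMIs, without the 5 members with the most UMIs, that share was 26.8% and 28.1%, and the NASH variance over the mean 1.90.

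The replicate numbers are not stated to pair the libraries. Deviations of same-numbered libraries from their diet means correlated across genes at r = -0.053. With 2 libraries per diet both pairs give the same value, so it cannot decide whether libraries were paired or processed together. With the replicate block, 25 members were higher and 1 lower in macrophage-like cells, and 7 were higher in endothelial-like cells.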

Other observations

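Monocyte-like cells were too few in the control libraries to compare by diet, but in the NASH libraries they held the members at the highest summed level. Ifitm3 reached 5347 and 5512 CPM of the class total in NASH 1 and NASH 2, and Ifi27l2a 2447 and 2334. Isg15 differed more between the libraries, at 124.1 and 318.3. Dendritic cell-like cells held far less of Ifitm3, at 357.3 and 420.5, while Isg15 there was at 81.4 and 117.0.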
